A study of Mus musculus with 6 samples.

Results

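Genes whose promoter overlapped an H3K27me3 peak in control granulosa cells and in no peak of cells treated with dihydrotestosterone (DHT) are described here. The members were chosen by comparing the authors' gene lists: a gene belongs to the set if its symbol stood in the control promoter list and was missing from the DHT promoter list. This gave 149 of the 160 genes of the control promoter list, and the other 11 stood in both lists. The DHT promoter list held 44 further genes of its own. Over the 26219 mouse symbols with a curated RefSeq transcript, 0.603% stood in the control promoter list. That share describes the list that chose the members, so nothing is read from it.

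H3K27me3 was measured by chromatin immunoprecipitation and sequencing (ChIP-seq) in primary granulosa cells of wild type C57BL/6J mice aged 8 to 9 weeks. The sample labels state 30 mice as the source of the cells, whereas the methods text of the study gives another number. The cells were combined, plated, grown in culture and serum starved before treatment, so the samples share the pooled animals. The control group had 3 samples without agent, and the DHT group had 3 samples that received 25 nM DHT, an androgen that aromatase does not turn into estrogen, for 24 h. The authors' files give 1 peak list per group, with 16345 peaks for control and 3975 for DHT, and lists of gene symbols that carry no value per gene or sample. The depth per sample is therefore unknown, no difference between the groups could be judged by replicate error, and a gene missing from the DHT list is one for which no peak passed the peak caller's limit, not one shown to lack the mark. Of the 10 granulosa cell markers looked up (such as Fshr, the receptor of follicle stimulating hormone, and Cyp19a1, aromatase), none was a member. Members were 0.564% of all symbols, so nothing is read from their absence among so few markers. No expression level was used, so the cell type was not checked against its markers.

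H3K27me3 is the trimethylation of lysine 27 on histone H3. It is written by Polycomb repressive complex 2, whose catalytic subunits are EZH2 and EZH1, and removed by the demethylases KDM6A and KDM6B. It is known for marking genes kept silent in a cell type, among them the homeobox genes and other developmental regulators, and at silent promoters it often lies over sequence rich in CpG dinucleotides. In the growing follicle, granulosa cells surround the oocyte, make estradiol under follicle stimulating hormone and express the androgen receptor that DHT binds.

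The members were grouped by the known function of their products. Genes not placed in a functional class formed the most numerous group with 33 members (22.1%), followed by chemosensory receptors with 18 (12.1%), and transcription and chromatin genes with 15 (10.1%). Genes of membrane traffic and protein turnover and genes of metabolism, lipids and the mitochondrion each numbered 12 (8.05%). Adhesion, junction and guidance genes numbered 11 (7.38%), small RNA genes 10 (6.71%), germ cell and reproductive tract genes 9 (6.04%) and immune cell genes 8 (5.37%). The rest were 6 genes of cell division, the cytoskeleton and DNA repair, 6 of RNA processing and translation, 5 signalling and secreted factors, and 4 transporters and channels. By RefSeq type, 125 members (83.9%) were protein-coding, against 80.2% of all symbols, and 13 (8.72%) were long non-coding RNA genes, against 12.7%. Developmental regulators, which H3K27me3 is known for, were looked up by symbol in 15 families with 233 genes in RefSeq. A single gene was a member, namely Gdf5, a bone morphogenetic protein relative that acts in joint formation. That is 0.429% of the 233, near the 0.564% of all symbols that were members.

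**Figure D1:**
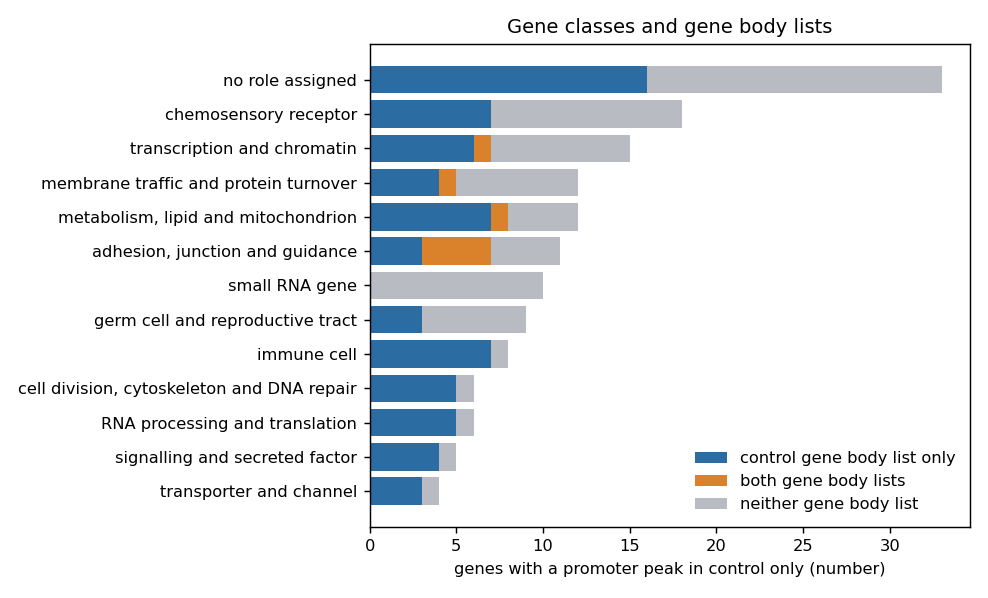
The 149 genes with a promoter peak in control only, counted by gene class (horizontal axis, number of genes) and split by the gene body list they stood in. Blue marks genes in the control gene body list only, orange the 7 genes in both gene body lists and grey the 72 genes in neither; the adhesion class holds 4 of the 7 orange genes and the small RNA class is wholly grey.

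The gene body lists tell whether a peak overlapped a member along its transcribed length. The promoter window reaches 1 kb into the gene, so a single peak can count for both. They derive from the same peaks as the promoter lists, so the counts are given as a description. Of the 149 members, 77 stood in the control gene body list, which is 51.7% (95% Wilson interval 43.7 to 59.6), beside 11.9% of all symbols. The DHT gene body list held 7 members, or 4.7% (2.29 to 9.38), beside 4.36% of all symbols, so this share was near that of genes in general. The control gene body list held all 7 as well. The remaining 72 members (48.3%, 40.4 to 56.3) were in neither list, and 0 stood in the DHT gene body list alone. Of the 44 genes with a promoter peak in DHT only, 24 were in the DHT gene body list (54.5%, 40.1 to 68.3). The control gene body list held 7 of the 44 (15.9%). The shares of all symbols in these lists were 4.36% and 11.9%, respectively. Both gene body lists held 6 of the 44 (13.6%) and 4.7% of the members. The list of the opposite group was the longer for the 44 (11.9% of all symbols) and the shorter for the members (4.36%). The share of all symbols in both lists was not computed, so nothing is read from that difference. Of the 11 genes in both promoter lists, 6 were in both gene body lists and 5 in neither.

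The 7 members in both gene body lists were Tenm4, Tenm2, Dlgap1, Robo2, Plch1, Vmp1 and Rora. For these genes the peak list of DHT lacked a promoter peak and still held a peak elsewhere in the gene. Tenm2 and Tenm4 encode teneurins, transmembrane proteins of cell adhesion at synapses, and Robo2 encodes a receptor for the Slit guidance cues. Dlgap1 encodes a scaffold of the postsynaptic density, Plch1 a phospholipase C, Vmp1 a membrane protein of the endoplasmic reticulum needed for autophagy, and Rora an orphan nuclear receptor. They were long genes. In the RefSeq annotation of GRCm38.p6, which is not the build of the peaks, Robo2 spanned 1555468 bp, Tenm2 1230398 bp, Dlgap1 852341 bp, Tenm4 739850 bp and Rora 734843 bp. Plch1 with 203305 bp and Vmp1 with 99979 bp were the shortest. Every one of the 7 exceeded the median of all protein-coding genes, 17729 bp.

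Gene length followed the gene body lists among the other members too. The 62 protein-coding members in the control gene body list alone had a median length of 31114 bp (quartiles 8399 and 120561). The 56 in neither list had a median of 6242 bp (1407 and 27035). Of 25 protein-coding members longer than 100 kb, 24 were in the control gene body list, and the exception was Eea1 (104856 bp), which encodes a tether of early endosomes. Taken whole, the 125 protein-coding members had a median of 16432 bp, close to that of all protein-coding genes, while the 3132 matched genes of the control gene body list had a median of 98145 bp. A longer gene offers more room for a peak, and the part of length in these counts was not tested.

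**Figure D2:**
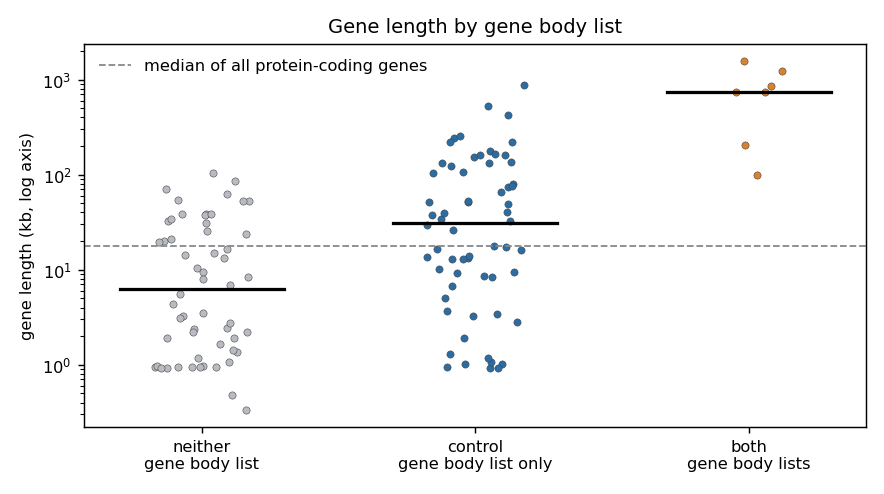
Length of each protein-coding member in GRCm38.p6 (vertical log axis, kb), by gene body list; points are genes, thick lines are group medians and the dashed line is the median of all protein-coding genes. The medians are 6242 bp for the 56 genes in neither list, 31114 bp for the 62 in the control list only and 739850 bp for the 7 in both.

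None of the 149 members appeared in any of the 4 deposited lists of genes that changed in expression after DHT and carried a gene body peak or a linked enhancer. A count of 0 among 149 allows a share of up to 2.01%, and 0.439% of all symbols stood in those lists, so a share like that of genes in general would not have been detectable here. The 4 lists held 22, 15, 66 and 33 entries, or 120 different symbols in all. They were restricted by the authors to genes tied to H3K27me3, hence a member missing from them was not shown to have unchanged expression.

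Chemosensory receptors are G protein-coupled receptors of the nasal epithelium and taste buds, each expressed in a small share of sensory cells. The members comprised 16 olfactory receptor genes, the bitter taste receptor Tas2r122 and the trace amine receptor Taar7a. Olfactory receptors made up 10.7% of the members and 4.29% of all RefSeq symbols (1126 genes). None stood in the DHT promoter list, which held 55 genes, or the DHT gene body list, which held 4.36% of all symbols. The control gene body list, with 11.9% of all symbols, named only 9 of the 1126. Nothing is therefore read from the absence in the shorter DHT lists. Olfr702, Olfr745, Olfr907, Olfr998, Olfr1009 and Olfr1246, together with Tas2r122, stood in the control gene body list too. Taar7a, Olfr62, Olfr130, Olfr176, Olfr204, Olfr508, Olfr689, Olfr794, Olfr993, Olfr1121 and Olfr1184 were in neither gene body list. Of the 9 olfactory receptors in the control gene body list, 6 were members. Those 6 were short, from 933 bp (Olfr907) to 3255 bp (Olfr702). The promoter window of 1 kb either side of the start covers much of so short a gene. A body peak there can therefore be the promoter peak itself, and this overlap is partly set by the definitions. Vomeronasal receptors, the pheromone receptors with 353 symbols in RefSeq, gave no member.

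Genes of transcription and chromatin were Aff1, a scaffold of the super elongation complex, the histone acetyltransferase gene Hat1, the acetyl-lysine reader Brd3, Mier1, Lrif1, Coprs, Tceal1, the factors Rora, Rfx3 and Tfcp2, and the zinc finger genes Zfp40, Zfp68, Zfp169, Zfp189 and Zfp438. Rfx3 drives genes of cilia and Coprs links the arginine methyltransferase PRMT5 to histones. Aff1, Zfp68, Mier1, Lrif1, Rfx3 and Zfp438 were in the control gene body list alone, and Rora was in both gene body lists. The other 8 were in neither. The Zfp prefix was carried by 5 members (3.36%) and by 1.54% of all symbols. None of the 13 genes of Polycomb repressive complex 2 and the H3K27 demethylases that were looked up was a member. With 0.564% of all symbols being members, so few genes would rarely include any. Ezh2, Jarid2 and Kdm6a stood in the control gene body list, and Aebp2 and Kdm6a in the DHT gene body list.

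Adhesion, junction and guidance members, beside the teneurins, Robo2 and Dlgap1, were the clustered protocadherins Pcdha6, Pcdhb1 and Pcdhb18, the gap junction gene Gjc1, the tight junction gene Cldn10, the tetraspanin gene Tspan6 and the lectin gene Chodl. Clustered protocadherins give neurons their surface identity. Their 3 members were 2.01% of the set, against 0.221% of all symbols (58 genes). The control gene body list held 34 of the 58, beside 11.9% of all symbols, and the DHT gene body list 0, beside 4.36%. Pcdha6, Pcdhb18 and Tspan6 were in the control gene body list alone. Gjc1, Cldn10, Pcdhb1 and Chodl were in neither list. Transcripts of the Pcdha cluster share exons and overlap, so peaks there can be credited to several genes at once. The 34 genes need not stand for as many peaks, and nothing is read from 34 against 0.

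Of the 8 immune cell genes, 7 stood in the control gene body list, beside 51.7% of all members. Other small classes had similar counts, such as 5 of 6 in RNA processing and translation. The 7 immune cell genes were Ccr3, the eotaxin receptor of eosinophils, Klre1, a lectin receptor of natural killer cells, the B cell adaptor gene Stap1, Arhgap25, a Rac regulator of phagocytes, Ms4a4a, Sectm1a and Calhm6. Slfn4, a myeloid gene, was in neither list. The signalling and secreted factors were Mgp, an inhibitor of calcification, Paqr8, a membrane progesterone receptor, Map2k7, the kinase that activates JNK, the amino acid sensing receptor Gprc6a, and Gdf5. All but Gdf5 were in the control gene body list alone. Among transporters and channels, the urate transporter gene Slc2a9, the potassium channel subunit gene Kcnab1 and the endosomal chloride exchanger gene Clcn5 were in that list alone, and the amino acid transporter gene Slc6a20b was in neither.

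The metabolic members held several genes of lipids and of the mitochondrion. Pla2g4a, whose product releases arachidonate for prostaglandin synthesis, the malic enzyme gene Me3, Suclg2 of the citric acid cycle, the phospholipase gene Plb1, the esterase gene Aadac, the sulfotransferase gene Sult2a6 and the mitochondrial ribosome gene Mrpl50 were in the control gene body list alone. Ndufaf4, an assembly factor of respiratory complex I, Ormdl1, a regulator of sphingolipid synthesis, Ptrh2, a peptidyl-tRNA hydrolase, and the phosphatase gene Acp7 were in neither list. In membrane traffic and protein turnover, Rab27b, Sec22a, the phosphoinositide phosphatase gene Mtm1 and the protease gene Ctse were in the control gene body list alone. Eea1, Washc4, Plaa, Klhl22, Zmpste24 (which processes prelamin A), Selenon and the trypsin gene Try4 were in neither.

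In cell division, the cytoskeleton and DNA repair, the mismatch repair gene Pms1, the cyclin gene Ccng1, the nuclear envelope gene Syne1, the microtubule tip gene Clasp2 and the muscle actin-binding gene Xirp2 were in the control gene body list alone, and Nedd1, which recruits gamma-tubulin, was in neither. In RNA processing and translation, Lsm5, Cwf19l2, Nxt2, Mcts1 and the polyadenylation factor gene Nudt21 were in the control gene body list alone, and Ogfod1 was in neither. Germ cell and reproductive tract members in that list alone were Actrt3, Ptchd3 and Fndc3c1. The acrosomal gene Spaca3, the epididymal lipocalin gene Lcn8, the testis glycerol kinase gene Gk2, Tex13a, Fam71a and Fam47c were in neither.

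The 33 remaining members were not placed in a functional class. RefSeq now lists Gm438 and Gm436 as Aadacl4fm5 and Aadacl4fm4, names of the arylacetamide deacetylase-like family, and Gm17689 as Pate8. Of these, 16 were in the control gene body list alone: Fam168a, BC049715, 1700024N05Rik, Gm438, 9330178D15Rik, AI504432, Smim26, 4930441J16Rik, 4930558K02Rik, 1700012B07Rik, 4930507D10Rik, Gm11563, 2310065F04Rik, Gm5087, 1700001G01Rik and Gm38666. The other 17 were in neither: Gm20594, A630073D07Rik, Gm30498, Gm8773, Lrrc66, Gm436, 2010009K17Rik, Fam171b, Gm28856, 4933404K13Rik, Gm16222, 4930564C03Rik, Gm17689, Fam216b, Gm10267, 4930415L06Rik and Rpl31-ps12. Provisional names of the Gm and Rik kinds made up 18.1% of the members (27 genes) and 16.6% of all symbols.

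The small RNA members were 9 microRNA genes and the small nucleolar RNA gene Snord82. MicroRNAs pair with target transcripts through the seed, bases 2 to 8 of the mature strand, and lower their stability and translation. MicroRNA genes were 6.04% of the members and 4.5% of all symbols, and none of the 10 small RNA genes was in a gene body list. RefSeq has 1180 microRNA genes, of which the control gene body list held 0 and the DHT gene body list 1. That absence was therefore general to microRNA genes and not particular to the members. RefSeq mature sequences were matched for 5 of the 9 genes, Mir872, Mir1895, Mir1981, Mir6373 and Mir764. Their 8 mature strands are shown because the seed sets which transcripts a strand can pair with, 5′ to 3′ and with the seed in capitals, from the GRCm38.p6 table.
mmu-miR-1981-3p: cAUCUAACccuggccuuugac
mmu-miR-1981-5p: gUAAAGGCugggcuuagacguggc
mmu-miR-1895: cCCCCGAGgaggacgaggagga
mmu-miR-872-5p: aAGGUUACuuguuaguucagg
mmu-miR-872-3p: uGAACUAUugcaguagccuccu
mmu-miR-6373: uAUGGGAAuaucuaggagguga
mmu-miR-764-5p: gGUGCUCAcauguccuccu
mmu-miR-764-3p: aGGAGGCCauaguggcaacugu

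The seeds of these 8 strands all differed from each other. Only the seed of mmu-miR-764-3p was found in another mature strand of the 1738 in the table, mmu-miR-7062-5p. The genes Mir486, Mir3107, Mir599 and Mir875 are named only, and their seeds were not compared. Mir486 and Mir3107 start 107 bp apart on opposite strands, and Mir599 and Mir875 start 129 bp apart on the same strand, so a single peak could have put both genes of a pair into the promoter list.

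Neighbouring starts of this kind were found for 16 members, in 8 pairs with starts within 2 kb of each other. Counting each pair once left 140 separate loci among the 148 members matched to RefSeq. In 5 pairs the genes were transcribed away from each other from a shared promoter region: 4930507D10Rik and Spaca3 (63 bp between starts), Ormdl1 and Pms1 (67 bp), Mrpl50 and Zfp189 (93 bp), Nudt21 and Ogfod1 (159 bp), and Ptrh2 and Vmp1 (238 bp). In each of these 5 pairs the control gene body list named exactly 1 gene, namely 4930507D10Rik, Pms1, Mrpl50, Nudt21 and Vmp1. The last pair, Gm38666 and Pcdha6, starts 6 bp apart on the same strand, and both were in the control gene body list. Any gene start within 2 kb was found for 15.5% of the members, 15.9% of the genes with a promoter peak in DHT only and 19.7% of all symbols, so the share among members was no higher than among genes in general. A further 7 members had a neighbour that was not a member. Paqr8 lay beside 6720483E21Rik, Mier1 beside Wdr78, BC049715 beside Wbp11 and Zfp169 beside A830005F24Rik, and 1700024N05Rik, 4930558K02Rik and Gm5087 lay beside Olfr13, Pigc and Synpr.

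The 148 matched members lay on every chromosome except 12 and Y. Chromosome 2 held 15 members, chromosomes 6 and 11 held 13 each, and chromosomes 4 and X held 11 each. Chromosome 12 held 0 of the members although the control list had 698 peaks there, and chromosome 13 held 1 member (Zfp169) beside 778 control peaks. Relative to peaks, chromosome 11 ranked highest with 20.1 members per 1000 control peaks, against 9.05 over all chromosomes, a ratio of 2.22. With neighbouring starts counted once the ratio was 1.99. Per 1000 genes, chromosome 11 was nearer the whole, with 6.71 members against 5.64 over all chromosomes. Relative to genes, chromosome 18 ranked highest with 12.2 members per 1000 genes, against 5.64 over all, and its 8 members include the 3 clustered protocadherins and Gm38666, which starts within the Pcdha cluster. Of the genes with a promoter peak in DHT only, 6 lay on chromosome 13 and 2 on chromosome 12. These counts are small and were not tested.

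**Figure D3:**
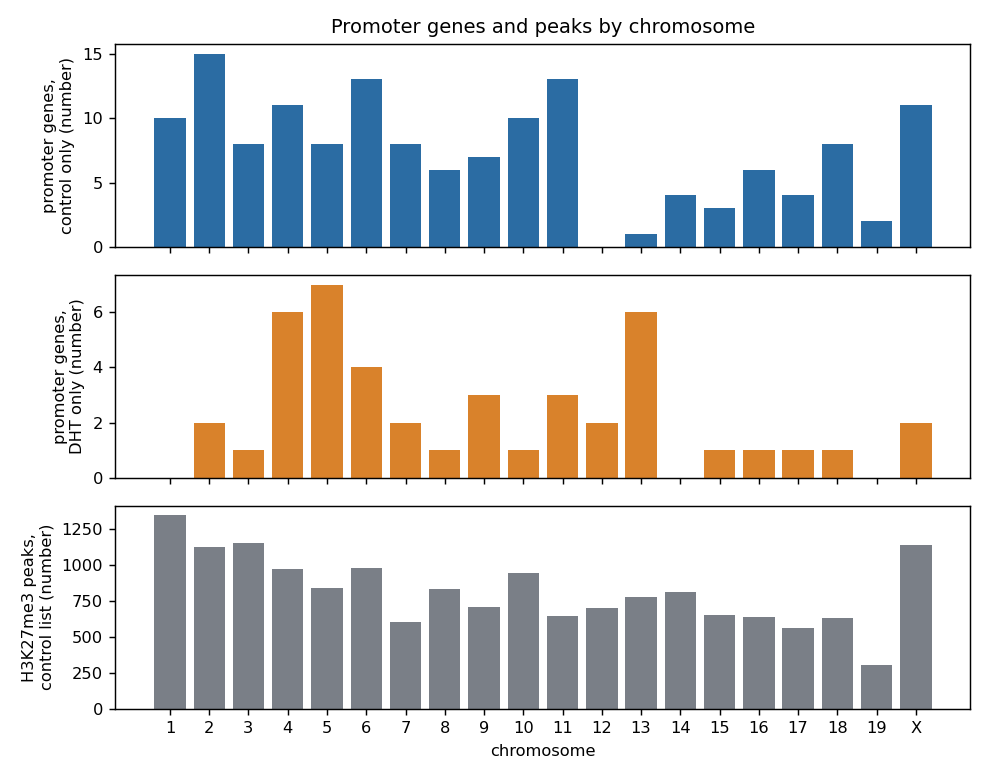
Number of genes with a promoter peak in control only (top), of genes with a promoter peak in DHT only (middle) and of control H3K27me3 peaks (bottom) on each chromosome. Chromosome 12 has no control-only gene beside 698 control peaks, and chromosome 11 has 13 beside 646.

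Promoter sequence was examined over 300 bases, 250 before and 50 after the most upstream start, in RefSeq promoters of GRCm38.p6. A sequence was matched for 101 of 125 protein-coding members and for 16853 of all protein-coding genes. CpG content was expressed as the ratio of CpG dinucleotides observed to those expected from the C and G content. The members had a median CpG ratio of 0.413 (quartiles 0.176 and 0.778) and a median GC content of 49.3% (40.7 and 58.7). All protein-coding genes had medians of 0.597 (0.236 and 0.836) and 56.7%. A CpG-rich promoter, with a ratio of at least 0.6 and a GC content of at least 50%, was found in 31 members, or 30.7% (22.5 to 40.3), and in 47.2% of all protein-coding genes. Without chemosensory receptors the share was 35.2% (26.1 to 45.6) among members and 51.2% among protein-coding genes, of which 79.6% had a sequence, and the median ratios were 0.484 and 0.644. The members therefore lay towards CpG-poor promoters, which was not tested. Of the 32 protein-coding genes with a promoter peak in DHT only, 24 had a sequence (75.0%, under the 80% required of a set). Their median ratio was 0.419, and 6 (25.0%) had a CpG-rich promoter, so these values were near those of the members. Low CpG content is therefore not read as particular to genes with a promoter peak in control only.

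**Figure D4:**
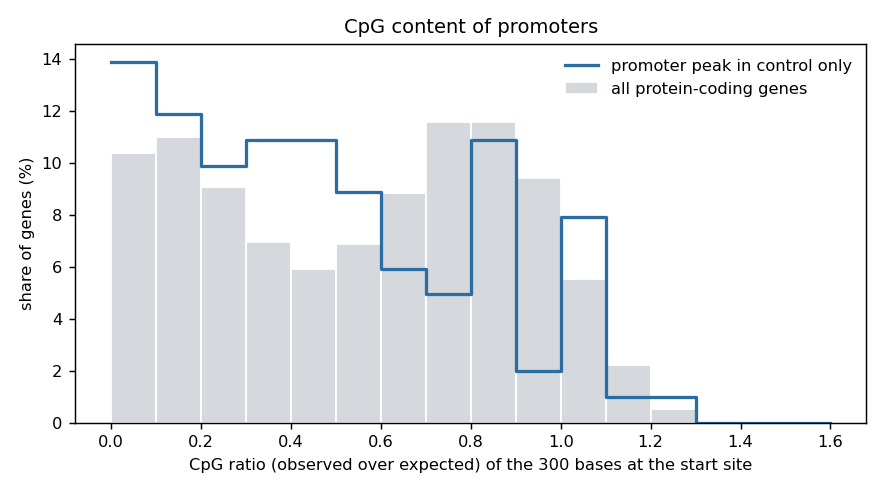
Distribution of the CpG ratio (horizontal axis, observed over expected) in the 300 bases at the start site, as a share of genes in each bin (vertical axis, %), for 101 protein-coding members (blue line) and 16853 protein-coding genes (grey bars). The line lies above the bars at ratios under 0.6, and the medians are 0.413 and 0.597.

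Median CpG ratios were compared among the 7 classes in which at least 80% of protein-coding members had a sequence, and 5 classes fell short of that. The classes are small, with 4 to 12 sequences each. Transcription and chromatin genes had a median ratio of 0.839 and 8 CpG-rich promoters among 12 with a sequence. RNA processing and translation genes had a median of 0.83 over 6 sequences, and genes of membrane traffic and protein turnover 0.783, with 6 of 10 CpG-rich. Genes of cell division, the cytoskeleton and DNA repair had a median of 0.603, with 3 of 5 CpG-rich. Metabolic genes had a median of 0.466, germ cell and reproductive tract genes 0.369 and transporters and channels 0.275 over 4 sequences. The 5 highest ratios belonged to Cwf19l2 (1.24), Map2k7 (1.15), Brd3 (1.1), Plaa (1.06) and Rora (1.05). The lowest, with no CpG at all, belonged to Olfr702, Olfr745, Olfr998, Olfr1184 and Mtm1. Mtm1 has 3 annotated starts, and 35 of the 125 protein-coding members have several. Only the most upstream was used, and which start lay under the peak is unknown. The 7 genes in both gene body lists spanned most of the range, with Tenm2 at 0.167, Tenm4 at 0.301, Robo2 at 0.447, Plch1 at 0.545, Dlgap1 at 0.605, Vmp1 at 1.03 and Rora at 1.05. The 58 protein-coding members in the control gene body list that had a sequence had a median ratio of 0.44, near the value of all members.

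The promoters at both ends of this range are shown, with every CpG in capitals. Brd3, Map2k7 and Rora stand for the CpG-rich end, Olfr745 and Mtm1 for the end without CpG. Tenm2 is shown for the lowest ratio among the 7 genes in both gene body lists. All are GRCm38.p6, read 5′ to 3′ on the strand of the gene. Brd3 (chr2:27475349-27475648, minus strand) holds 46 CpG at 75.0% GC, Map2k7 (chr8:4238490-4238789, plus strand) 29 at 58.0% and Rora (chr9:68653536-68653835, plus strand) 28 at 60.3%. Tenm2 (chr11:36944192-36944491, minus strand) holds 2 CpG at 40.0% GC, a ratio of 0.167. Mtm1 (chrX:71210517-71210816, plus strand) and Olfr745 (chr14:50641945-50642244, plus strand) hold 0 CpG, at 43.0% and 28.7% GC.
Brd3 promoter: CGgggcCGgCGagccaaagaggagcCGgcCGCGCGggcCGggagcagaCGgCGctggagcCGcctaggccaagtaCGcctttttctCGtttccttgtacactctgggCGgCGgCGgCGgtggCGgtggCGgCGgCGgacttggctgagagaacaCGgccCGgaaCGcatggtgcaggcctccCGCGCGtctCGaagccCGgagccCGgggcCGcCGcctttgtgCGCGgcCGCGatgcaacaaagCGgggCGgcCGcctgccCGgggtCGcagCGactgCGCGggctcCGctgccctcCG
Map2k7 promoter: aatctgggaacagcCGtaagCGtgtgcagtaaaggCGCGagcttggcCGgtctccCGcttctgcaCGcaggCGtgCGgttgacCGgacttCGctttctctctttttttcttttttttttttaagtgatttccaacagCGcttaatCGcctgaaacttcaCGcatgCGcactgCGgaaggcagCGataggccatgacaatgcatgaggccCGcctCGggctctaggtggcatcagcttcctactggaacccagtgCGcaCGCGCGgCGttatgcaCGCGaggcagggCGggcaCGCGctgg
Rora promoter: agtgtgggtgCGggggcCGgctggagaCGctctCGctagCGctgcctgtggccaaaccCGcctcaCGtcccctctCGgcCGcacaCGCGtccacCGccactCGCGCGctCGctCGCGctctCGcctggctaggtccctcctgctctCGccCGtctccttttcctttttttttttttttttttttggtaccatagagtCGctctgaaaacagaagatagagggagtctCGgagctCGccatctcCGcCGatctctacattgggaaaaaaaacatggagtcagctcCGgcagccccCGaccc
Olfr745 promoter: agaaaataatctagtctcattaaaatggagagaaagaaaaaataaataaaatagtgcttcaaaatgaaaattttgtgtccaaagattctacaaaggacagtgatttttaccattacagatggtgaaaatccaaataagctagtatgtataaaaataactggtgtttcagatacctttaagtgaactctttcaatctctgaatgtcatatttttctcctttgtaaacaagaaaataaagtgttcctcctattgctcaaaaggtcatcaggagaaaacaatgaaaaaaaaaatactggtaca
Mtm1 promoter: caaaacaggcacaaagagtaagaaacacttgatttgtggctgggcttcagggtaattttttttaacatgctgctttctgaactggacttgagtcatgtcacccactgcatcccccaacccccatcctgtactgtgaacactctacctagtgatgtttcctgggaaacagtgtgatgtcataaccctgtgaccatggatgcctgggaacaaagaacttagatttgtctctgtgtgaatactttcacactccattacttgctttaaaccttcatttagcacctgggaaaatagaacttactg
Tenm2 promoter: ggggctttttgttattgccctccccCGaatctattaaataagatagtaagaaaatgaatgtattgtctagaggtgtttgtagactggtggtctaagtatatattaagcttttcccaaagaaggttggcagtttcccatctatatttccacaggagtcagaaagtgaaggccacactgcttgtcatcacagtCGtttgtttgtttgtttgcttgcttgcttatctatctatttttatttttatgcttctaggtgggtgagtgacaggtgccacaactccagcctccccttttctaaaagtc

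In Brd3 and Map2k7 the capitals recur along the whole window, whereas the Olfr745 window consists mostly of A and T. Brd3 was in neither gene body list, and Map2k7 and Olfr745 were in the control gene body list alone, so members with opposite promoter composition shared the same list status.

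Short motifs were counted on both strands of the same 300 bases. The TATA box TATAAA was present in 18 of 101 protein-coding members, or 17.8% (11.6 to 26.4), and in 13.2% of all protein-coding genes. The GC box GGGCGG, the site of SP factors, was present in 28 (27.7%, 19.9 to 37.1), against 47.7%. The hexamer AGAACA, bound by androgen and glucocorticoid receptors as a single arm of their response element, was present in 26 (25.7%, 18.2 to 35.0), against 16.4%. The full androgen response element was searched only in its exact form, with both AGAACA arms facing each other across a gap of 3 bases. This form was found in 0 members and in 1 of 16853 promoters of all protein-coding genes. So rare a string could hardly occur among 101 promoters, and elements with any differing base in an arm were not searched. Nothing is therefore read from the 0. None of these 3 hexamers contains another, and the full element contains AGAACA. The GC content of the members was lower than that of all protein-coding genes, and its part in these shares was not tested. Without chemosensory receptors, TATAAA was present in 12.5% of the members and 11.0% of protein-coding genes, so its share was then near that of genes in general. The shares were 31.8% against 51.7% for GGGCGG and 23.9% against 14.8% for AGAACA. That background is the same as above, just under the 80% with a sequence required of a set. A match describes letters in a window and was not shown to be a bound site.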

How the data were processed

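H3K27me3 ChIP-seq was done in 3 control and 3 DHT-treated samples, and groups were taken from the labelled agent. The authors aligned the reads to mm9 (Bowtie2 2.3.4), retained those mapping to a single place and called broad peaks (MACS2 2.1.1) at a q-value of 0.05 or less. How replicates were combined is not given in the sources used here. For each peak the deposited files give a score, a fold enrichment (a ratio over the local background), a −log10 p-value and a −log10 q-value. The deposited gene lists hold symbols of genes whose body, or promoter (1 kb either side of the start), overlapped a peak. The number of reads per sample is unknown.

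Lists were compared by symbol in Python 3.11.15 with numpy 2.4.6 and pandas 2.3.3, and figures were drawn with matplotlib 3.10.9. Of the members, 148 of 149 matched RefSeq, 3 of them through older symbols. Shares carry 95% Wilson intervals, which cover counting error only. The reference (GRCm38.p6) is not the build of the peaks, so it gave names, lengths, neighbouring starts and sequences, and no peak was placed on it. Composition was reported for sets with a sequence for at least 80% of genes, apart from comparison sets given with their lower share. For all 149 members the check was void, so the protein-coding members were used.

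Every member was named by class, with values for those in the DHT gene body list, microRNA genes, pairs of neighbours and the 5 highest and lowest CpG ratios. The members, classes and lists were chosen with earlier results of these data known. Alternatives were other symbol matching, other subsets of members, other distances between starts and a stricter q-value of 0.01 for the control peaks counted per chromosome. Membership was not rebuilt at another peak limit. Motif counting was tested on simulated sequences. No test between groups was run, because each group has 1 list.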

Additional observations from a re-analysis of the deposited data

How the results depend on the processing

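Each of 13 values was recomputed under 1 to 3 of 22 alternatives, and none moved beyond its limit, which was the 95% interval for shares, the quartiles for promoter medians and 1.5 times for counts, lengths and the ratio of chromosome 11. Most alternatives kept most of the same members, and these limits are wide. A value could therefore hardly have moved beyond its limit, and no robustness is read from this outcome. The member count was 148 with current RefSeq symbols and 142 when genes in the DHT gene body list were also left out. The share in the control gene body list ranged from 51.7% to 55.2%, and that in the DHT gene body list from 4.7% to 5.6%. The promoter GC median was 50.3% and the CpG ratio 0.445 when all starts of a gene were averaged, a choice made after seeing the data, as were the motif shares without chemosensory receptors. No paired analysis was possible because each group has 1 pooled list, and for the same reason no replicate could be left out. The peak at each member promoter was not looked up, since no mm9 annotation was used here. Membership depends on the peak limit and on the depth of each pool, which is unknown.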

Other observations

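The control list yielded 9.79 promoter genes per 1000 peaks and the DHT list 13.8. The markers looked up for other cell types of the ovary gave no member, which is unremarkable for so few genes when 0.564% of all symbols were members. Of 4 leukocyte markers, Ptprc stood in both gene body lists, and of 3 endothelial markers, Pecam1 stood in both. None of 3 theca cell markers and none of 6 oocyte markers stood in a gene body list. Of the 10 granulosa cell markers, the control gene body list held Fshr and Cyp19a1, and the DHT gene body list Fshr and Nr5a2.

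Beyond the pairs with starts within 2 kb, 3 pairs of members had starts within 100 kb of each other. Mgp lay 46980 bp from BC049715, Plaa 61910 bp from Mir872 and Tas2r122 84417 bp from A630073D07Rik.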
